A study of Mus musculus with 10 samples.

Results

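Glutathione transferases, glutathione peroxidases and the enzymes that make, reduce and break down glutathione were followed in the hearts of iSOD2 mice and their littermate controls. Members were chosen by gene symbol: every Gst gene of the alpha, kappa, mu, omega, pi, theta and zeta classes, Mgst1 to Mgst3, Gpx1 to Gpx8, Ggt1 to Ggt7, and Gclc, Gclm, Gss, Gsr, Ggct, Hpgds, Idh1 and G6pdx. This gave 45 of the 24537 genes in the table, namely 26 transferases (Hpgds, the sigma-class member, included), 8 peroxidases, 3 synthesis genes, 3 genes of glutathione reduction and NADPH supply and 5 breakdown genes. Of the 45, 40 reached 10 counts summed over the 10 libraries and were tested. The other 5 (Gpx2, Gpx5, Gpx6, Gstp3 and Gstt4) had at most 2.5 counts in any heart. A mean of at least 50 normalized counts was reached by 31 members.

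Bulk RNA-seq had been performed on total RNA from heart tissue of 10 mice aged 6 weeks, 5 per genotype. Every mouse carried 1 copy of rtTA2, a doxycycline-dependent transactivator under the Rosa26 promoter that is active in most cell types, and every dam had eaten doxycycline chow from the day of the vaginal plug until birth. Control mice had the genotype Rosa26-rtTA2+/-;TRE-SOD2-shRNA-/-, and iSOD2 mice had Rosa26-rtTA2+/-;TRE-SOD2-shRNA+/-, with a short hairpin RNA against Sod2 placed at the Col1a1 locus. The knockdown of SOD2, which removes superoxide from the mitochondrial matrix, was thus limited to embryonic life and was not restricted to the heart. Controls 1 and 2 were males of litter A, control 3 was a male of litter B, and controls 4 and 6 were females of litter B. Among iSOD2 mice, 7 (male) and 8 (female) came from litter A, and 5 (female), 9 (male) and 10 (female) from litter B. Litter A therefore held 4 mice and litter B 6, and p-values measure the spread between these 10 animals.

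Glutathione is a tripeptide of glutamate, cysteine and glycine and the main soluble thiol of cells. Peroxidases spend it to reduce hydrogen peroxide and lipid peroxides, transferases join it to reactive molecules such as the aldehydes left by lipid peroxidation, and glutathione reductase restores it with NADPH. In the heart, where mitochondria are dense, this system is a principal route of peroxide removal beside the peroxiredoxins, and several of its genes can be induced by the transcription factor NRF2 through antioxidant response elements.

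The core of that element, TGACNNNGC, was looked for on both strands of the promoter windows of the members (250 bases before to 50 after the start, RefSeq, build GRCm38.p6), because the study asked about NRF2 targets. A window was found for 40 members, and 8 of them held the core (20%), against 14.9% of the 17601 genes of the table with a window. The 8 were G6pdx, Gclm, Ggct, Ggt1, Gsta3, Gstm5, Gstm7 and Mgst1. Of the members described mouse by mouse below, Gsta3, Ggct and Gstm5 were among them, so their matches are shown, with the core in capitals. A match gives letters in a window and no evidence of binding.
Gsta3, the 250 bases before the start, chr1:21240335-21240584, plus strand: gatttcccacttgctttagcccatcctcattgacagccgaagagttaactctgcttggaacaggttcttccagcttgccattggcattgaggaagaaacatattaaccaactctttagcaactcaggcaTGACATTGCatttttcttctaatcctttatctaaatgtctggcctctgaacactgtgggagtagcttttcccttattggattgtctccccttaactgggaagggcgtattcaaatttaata
Gstm5, chr3:107895797-107895835, plus strand: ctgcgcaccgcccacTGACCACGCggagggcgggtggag
Ggct, chr6:54993018-54993056, minus strand (core on the opposite strand): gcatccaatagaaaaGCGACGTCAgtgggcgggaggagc
The core began 121 bases before the start of Gsta3, 42 before that of Gstm5 and 174 before that of Ggct, whose window held another match just after the start. Of the 3 synthesis genes, Gclm held the core in this window.

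Gene counts per library summed to between 16448090 and 24263086. Sod2 had 10573 ± 588 normalized counts in controls against 10781 ± 449 with the hairpin (SD, 5 mice per genotype, two-sided exact permutation p 0.532), so weeks after doxycycline had ended its level did not serve as a check of the genotype labels. All 8 ventricular cardiomyocyte markers were present at a mean log2 level of 17.0 to 17.2. Markers of another tissue were also detected, and the 16 hepatocyte markers averaged 3.23 to 8.61 on the log2 scale in control hearts, against 7.72 to 9.37 in iSOD2 hearts, a difference of 1.84 (exact permutation p 0.0238, 0.214 after adjustment over 9 marker lists). Albumin (Alb) had 47.9 normalized counts in control 1 and 1607 to 14601 in the other hearts, all 16 markers averaged at least 50, and only Ambp was at 0 in a heart, control 1. Without control 1 the hepatocyte difference was 0.939 (exact p 0.0556).

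Levels of different members were compared as normalized counts per kb of exon, over all 10 hearts. Gpx4, the peroxidase that reduces lipid peroxides within membranes, was the most abundant at 6155 ± 381 (SD), followed by Mgst3, a microsomal transferase with peroxidase activity, at 4919 ± 643. Within each of the 10 hearts Gpx4 was the higher of the pair. Gstp1 at 2477 ± 165 and Gstm1 at 2392 ± 142, the main cytosolic transferases, came next and did not differ beyond their spread. Gsto1 had 1458 ± 120.2 per kb, and Gpx3, Gstm2, Gpx1, Gsta4 and Gstk1 lay between 817 and 1004, each differing from its neighbour in that order by less than the spread between hearts. The synthesis genes were scarcer, with 139.7 ± 22.2 for Gclm, 112 ± 10.8 for Gss and 100.5 ± 6.2 for Gclc. At the low end of the 31 members, Gstt3 had 33.6 ± 7.48 and Hpgds 18.8 ± 3.84.

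By class, microsomal transferases held 32.2% of the summed transferase level per kb, mu transferases 26.7%, pi transferases 17.0%, omega 8.87%, alpha 6.12%, kappa 4.91%, zeta 2.34%, theta 1.79% and sigma 0.114%. The alpha class ranged from 5.29% to 7.76% between hearts. The summed level of all 26 transferases was 15749 ± 903 for controls against 17486 ± 660.1 for iSOD2 hearts, and that of the 8 peroxidases 7976 ± 276 for controls against 8804 ± 489 for iSOD2 hearts (normalized counts per kb, SD, n = 5 each). These sums are divided by exon length, but the trend of fold changes with exon length, described further on, was not removed from them. Most members are short: genes of the shortest bin of exon length, which holds 22 of the 31 members, had a median log2 fold change of 0.11. Members that share sequence can exchange reads, and the share of 50-base stretches also found in transcripts of other genes was 89.7% for Gsta1, 72.6% for Gstp2, 68.9% for Gpx4 (most often with the copy Gpx4-ps2), 64.2% for Gsta2, 62.3% for Gstp1, 28.8% for Gstm3 and 23.1% for Gstm1, so the levels of these are uncertain to that extent.

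**Figure D1:**
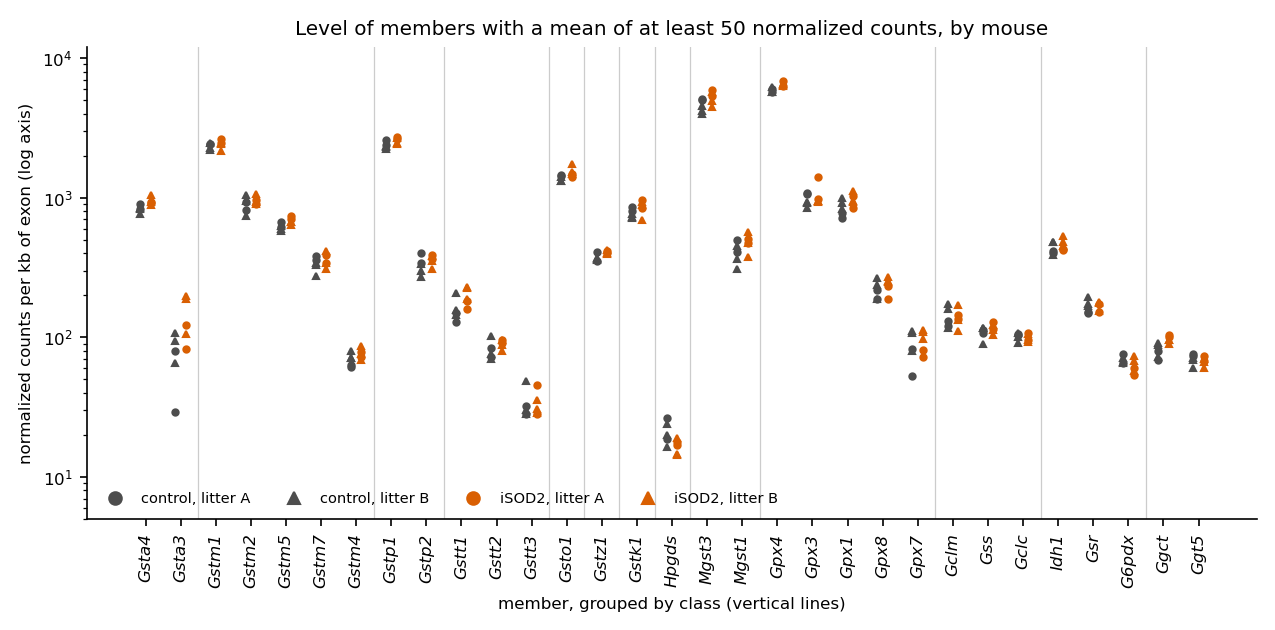
Normalized counts per kb of exon (log axis) of the 31 members that averaged 50 or more normalized counts, 1 point per mouse (circles, litter A; triangles, litter B; grey, control; orange, iSOD2). Gpx4 and Mgst3 stand highest and Hpgds lowest, and the genotypes lie close together beside the distance between genes.

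The main comparison asked whether hearts that had gone through embryonic SOD2 loss differed from controls in this system at 6 weeks. By DESeq2, 0 members were called at an adjusted p of at most 0.05 with an absolute log2 fold change above 0.25 (0 of the 25 members with an adjusted p), where 2.96% of all genes with an adjusted p were. Gpx4 was the 1 member that passed the adjusted p alone, as did 6.09% of all genes. At an unadjusted p under 0.05, 11 of the 40 tested members were higher in iSOD2 hearts and 0 lower, beside 7.29% of all genes higher and 5.93% lower. The 11 were Gpx4, Gpx1, Gsta3, Gsta4, Gstm5, Gstp1, Gstt1, Gsto1, Gstz1, Mgst3 and Ggct. edgeR's quasi-likelihood test also called 0 members, with a lowest adjusted p of 0.182, and gave 11 higher and 1 lower at an unadjusted p under 0.05 (8.56% of all genes were higher). Of the 12149 genes averaging at least 50 normalized counts, edgeR put 1229 higher and 1091 lower at that unadjusted p. The share of all genes called by edgeR is not given here, so its 0 calls cannot be set against it. Genotypes did not overlap, with iSOD2 hearts higher, for 1 member, Gpx4 (2.1% of all genes), and with iSOD2 hearts lower for 0 members (1.67% of all genes).

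Most differences were small and had the same sign. Of the 31 members, 26 had a log2 fold change above 0 (19 once a trend with exon length, described further on, was removed). So did 48.5% of the 12149 genes that averaged at least 50 normalized counts, a floor and not a match in abundance. The median was 0.13 for the members and -0.0045 for all those genes. The 5 with a value below 0 were Hpgds, G6pdx, Ggt5, Gclc and Gclm. Members can share regulation and reads and are not independent of each other.

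Among the peroxidases, Gpx4 (chr10:80053488-80056439, mm10) had 5703, 5426, 5392, 5869 and 5434 normalized counts in controls 1, 2, 3, 4 and 6. It had 5963, 5943, 6500.0, 6075 and 6167 in iSOD2 mice 5, 7, 8, 9 and 10. Every iSOD2 heart lay above every control heart, with the highest control at 5869 and the lowest iSOD2 heart at 5943. The means were 5565 ± 211 for controls against 6129.7 ± 226 for iSOD2 hearts (SD of 5 mice each), and the log2 fold change was 0.14 ± 0.043 (SE) with an adjusted p of 0.0274 (DESeq2). With all hearts apart, separation within each litter and sex follows and adds no further evidence. The log2 ratio of means was 0.16 in litter A, 0.12 in litter B, 0.14 in females and 0.13 in males. In DESeq2 fits of these subsets alone the adjusted p was 0.354, 0.736, 0.9997 and 0.386, in the same order. When each mouse was left out in turn the adjusted p stayed at or under 0.05 in 3 of 10 fits, without control 4, iSOD2 5 or iSOD2 7, and reached 0.17 without control 3. With the exon length trend removed from each library the log2 fold change was 0.014 (adjusted p 0.962). The adjusted p was 0.0366 with litter as a covariate, but 0.0613 with sex, 0.103 with both and 0.115 with the hepatocyte marker level. In bulk heart RNA, fewer cells of a type and less RNA per cell cannot be told apart.

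Gpx1, the cytosolic and mitochondrial peroxidase that takes hydrogen peroxide (chr9:108339080-108340342), had 739.8, 803, 1038, 948 and 865 normalized counts in controls in the same order of mice. In iSOD2 hearts it had 987, 869, 1069, 971 and 1161. Controls 3 and 4 lay within the range of the iSOD2 hearts, so the groups overlapped. The log2 fold change was 0.20 ± 0.10 (SE), with an adjusted p of 0.226. It was 0.083 with the exon length trend removed and 0.038 with the hepatocyte marker level as a covariate.

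Gpx3, the peroxidase secreted into plasma (chr11:54902854-54910387), had 1649, 1598, 1268, 1410.4 and 1389 in controls. The iSOD2 hearts had 1428, 1486, 2132, 1419.5 and 1437, where iSOD2 8 stood far above the other 4. The log2 fold change between genotypes was 0.11 ± 0.12 (SE) (adjusted p 0.637) and -0.021 without that mouse.

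Gpx7, a peroxidase of the endoplasmic reticulum (chr4:108400217-108406713), had 99.5, 63.9, 134, 129 and 96.1 in controls. It had 137, 87.0, 97.9, 118 and 131 in iSOD2 hearts, and the groups overlapped widely. Its log2 fold change was 0.13 ± 0.19 (SE). Gpx8, its relative in the same compartment, ranged from 189 to 272 over all hearts and gave a log2 fold change of 0.12 ± 0.13 (SE), at adjusted p 0.629.

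Alpha transferases conjugate the products of lipid peroxidation and many drugs. For the alpha member Gsta1 and the theta member Gstt1 the study also measured the proteins. It reports both as higher in iSOD2 hearts by Western blot, whereas the values given here are of RNA. Gsta3 (chr1:21240585-21265575), whose promoter is shown above, had 43.9, 120.0, 142, 161 and 99.2 normalized counts in controls. In iSOD2 hearts it had 282, 123, 185, 160.0 and 299.7. Control 1 was the lowest, iSOD2 5 and 10 were the highest by a wide margin, and iSOD2 7 and 9 lay among the controls. With means of 113 ± 45.4 for controls against 209.9 ± 77.2 for iSOD2 hearts (SD of 5 mice each), Gsta3 had the largest log2 fold change of the 31 members, 0.89 ± 0.38 (SE), and an adjusted p of 0.147. The fold was called in litter B alone (0.88, adjusted p 0.0312) and in females alone (0.97, adjusted p 0.0485). These fits held 3 iSOD2 hearts against 3 and 2 controls, and the share of all genes called in them is not given here. In litter A alone the fold was 0.93 and in males alone 0.49, and neither fit gave Gsta3 an adjusted p. With the hepatocyte marker level as a covariate it was 0.28 ± 0.23 (SE).

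Gsta4, the form that prefers 4-hydroxynonenal (chr9:78191966-78209349), had 788, 849.9, 792, 797 and 726 in controls. It had 835, 865, 878, 880.0 and 999.6 in iSOD2 hearts. Only control 2 reached into the iSOD2 range, and within each litter and each sex the genotypes did not overlap. These subsets regroup the same 10 hearts and hold 2 or 3 mice per genotype. The share of all genes that separate within them was not computed. For Gsta4 the log2 fold change came to 0.17 ± 0.067 (SE) (adjusted p 0.0988), and 0.047 with the exon length trend removed. Gsta1 (chr9:78230669-78242683) was scarce, with 11.3, 11.9, 8.78, 17.3 and 15.2 in controls. In iSOD2 hearts it had 24.5, 15.02, 15.9, 13.7 and 30.2, with 5 and 10 high and 7, 8 and 9 among the controls. Its log2 fold change was 0.61 ± 0.35 (SE) and its counts were too low for an adjusted p. Gsta2, a close relative, had 0 to 8.82.

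Mu and pi transferases are the bulk of the cytosolic enzymes in heart. All 7 mu members had a log2 fold change above 0, with a median of 0.15, but Gstm1, Gstm2 and Gstm7 were below 0 with the exon length trend removed, and 0 members were called. Gstm5 (chr3:107895854-107898685) had 555, 600.4, 540.4, 565 and 518 normalized counts in controls. It had 607, 637, 668, 599.7 and 575 in iSOD2 hearts. Control 2 overlapped with the lower iSOD2 hearts. For Gstm5 the log2 fold change came to 0.15 ± 0.068 (SE) (adjusted p 0.171), and 13.9% of its exon bases overlap an antisense gene, whose reads cannot be told apart without strand. Gstm1 (2765 to 3397 over all hearts, log2 fold change 0.037 ± 0.060 (SE)), Gstm2 (769 to 1110.0, 0.088 ± 0.090 (SE)), Gstm7 (354 to 537, 0.089 ± 0.11 (SE)) and Gstm4 (102 to 144, 0.15 ± 0.12 (SE)) did not pass at an unadjusted p under 0.05, nor did the scarce Gstm3 (16.3 to 43.3) and Gstm6 (6.90 to 24.3).

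Gstp1, the abundant pi transferase (chr19:4035411-4037912), had 1763, 1891, 1650.1, 1715 and 1705 in controls. It had 1806, 2005, 1927, 1971 and 1773 in iSOD2 hearts. Control 2 reached into the iSOD2 range. Within each litter and each sex, with 2 or 3 mice per genotype, the iSOD2 hearts were the higher ones. For Gstp1 too, no share of all genes that separate within such subsets was computed. For Gstp1 the log2 fold change was 0.12 ± 0.056 (SE) (adjusted p 0.194) and -0.0086 with the exon length trend removed. Gstp2, its close copy, ranged from 199.8 to 300.2 with a log2 fold change of 0.13 ± 0.11 (SE).

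The theta transferase Gstt1, which handles small halogenated molecules (chr10:75783813-75798584), had 155, 133, 160.5, 213 and 148 in controls. In iSOD2 hearts it had 233, 188, 165, 192 and 238. Control 4 stood above 3 of the 5 iSOD2 hearts. Means were 162 ± 30.5 for controls against 203 ± 31.3 for iSOD2 hearts (SD of 5 mice each), and the log2 fold change was 0.32 ± 0.15 (SE) at an adjusted p of 0.173. Gstt1 was called only when control 4 was left out (0.44, adjusted p 0.0223), among the fits that each left out 1 mouse, and the exon length trend removed gave 0.20. Gstt2 (95.3 to 139) and Gstt3 (53.3 to 91.6) had log2 fold changes of 0.15 ± 0.13 (SE) and 0.023 ± 0.21 (SE).

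Gsto1, the omega transferase with thioltransferase activity (chr19:47854973-47864788), had 1679, 1708, 1639, 1541 and 1535 in controls. It had 1739.9, 1644, 1738, 1794 and 2026 in iSOD2 hearts. Only iSOD2 7 lay among the controls. Its log2 fold change was 0.14 ± 0.064 (SE) (adjusted p 0.177), with a log2 ratio of means of 0.24 in litter B and -0.0021 in litter A. Gstz1, the zeta transferase of tyrosine breakdown (chr12:87147707-87164723), had 671, 585, 617, 599 and 592 in controls. The 5 iSOD2 hearts, at 670.0, 661, 684, 657 and 694, lay above every control but control 1. The log2 fold change was 0.13 ± 0.061 (SE) (adjusted p 0.177) and 0.050 with the exon length trend removed, and 9.14% of its exon bases overlap Pomt2 on the opposite strand.

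Of the remaining transferases, Gstk1 (mitochondrial and peroxisomal) ranged from 642 to 880.1 with a log2 fold change of 0.16 ± 0.091 (SE). Hpgds, a prostaglandin D synthase found in mast cells and macrophages, ranged from 47.6 to 86.8 and had the lowest log2 fold change of the 31 members, -0.35 ± 0.18 (SE) (unadjusted p 0.0541, edgeR 0.0393). The 6 macrophage markers averaged 9.61 ± 0.120 on the log2 scale in control hearts, against 9.44 ± 0.188 in iSOD2 hearts (SD of 5 mice, exact permutation p 0.127), and their part in the Hpgds values was not tested. Gsto2 had 6.36 to 27.5 normalized counts and a log2 fold change of -0.47 ± 0.38 (SE).

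Microsomal transferases reduce lipid peroxides within membranes. Mgst3 (chr1:167372384-167393797) had 3183, 3159.7, 2473, 2859.9 and 2633 normalized counts in controls. It had 3606, 3700.3, 3354, 3093 and 2777 in iSOD2 hearts. iSOD2 9 and 10 of litter B lay among the controls and below both controls of litter A. The log2 fold change was 0.21 ± 0.093 (SE) (adjusted p 0.169), and it was called with the hepatocyte marker level as a covariate (0.34, adjusted p 0.0207) but not when the exon length trend was also removed (0.24, adjusted p 0.402). Mgst1 ranged from 290.4 to 529, at a log2 fold change of 0.25 ± 0.13 (SE) with adjusted p 0.28, and was called with sex as a covariate (0.32, adjusted p 0.0379) and with sex and litter (adjusted p 0.0446). With the exon length trend removed Mgst1 had 0.12 (adjusted p 0.854) and Mgst3 0.081 (adjusted p 0.87). Mgst2 was nearly absent, at 0.494 to 3.30.

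The enzymes that make glutathione did not pass in either direction. Gclc, the catalytic subunit of the rate-limiting ligase, ranged from 309.6 to 365 over the 10 hearts with a log2 fold change of -0.028 ± 0.081 (SE). Gclm, its modifier subunit, ranged from 228 to 359 with -0.0082 ± 0.14 (SE). Gss, which adds glycine, ranged from 174 to 251 with 0.11 ± 0.10 (SE).

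Glutathione reductase (Gsr) ranged from 399 to 514 with a log2 fold change of 0.0049 ± 0.090 (SE). G6pdx, which opens the pentose phosphate pathway and supplies NADPH, ranged from 139.9 to 196 with -0.13 ± 0.11 (SE), and 13.6% of its exon bases overlap Ikbkg on the opposite strand. Idh1, the cytosolic NADP-dependent isocitrate dehydrogenase, ranged from 881 to 1204 with 0.10 ± 0.086 (SE). None of the 6 genes of synthesis and reduction passed at an unadjusted p under 0.05.

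Among breakdown genes, Ggct, the gamma-glutamylcyclotransferase that frees 5-oxoproline (chr6:54985095-54992867), had 108, 93.1, 118, 123 and 97.6 in controls. In iSOD2 hearts it had 129.6, 136, 140.2, 130.1 and 121. Only control 4 and iSOD2 10 crossed. Means were 108 ± 12.9 for controls against 131 ± 7.27 for iSOD2 hearts (SD of 5 mice each), and the log2 fold change was 0.29 ± 0.12 (SE), with an unadjusted p of 0.0197 and too few counts for an adjusted p. With the exon length trend removed it was 0.18, and with the hepatocyte marker level as a covariate 0.28. Ggt5, a gamma-glutamyl transferase that also cleaves leukotriene C4, ranged from 249.9 to 313 with -0.052 ± 0.090 (SE). Ggt7 had 11.9 to 38.2 normalized counts, and Ggt1 and Ggt6, the former high in kidney, at most 15.3 and 4.41.

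**Figure D2:**
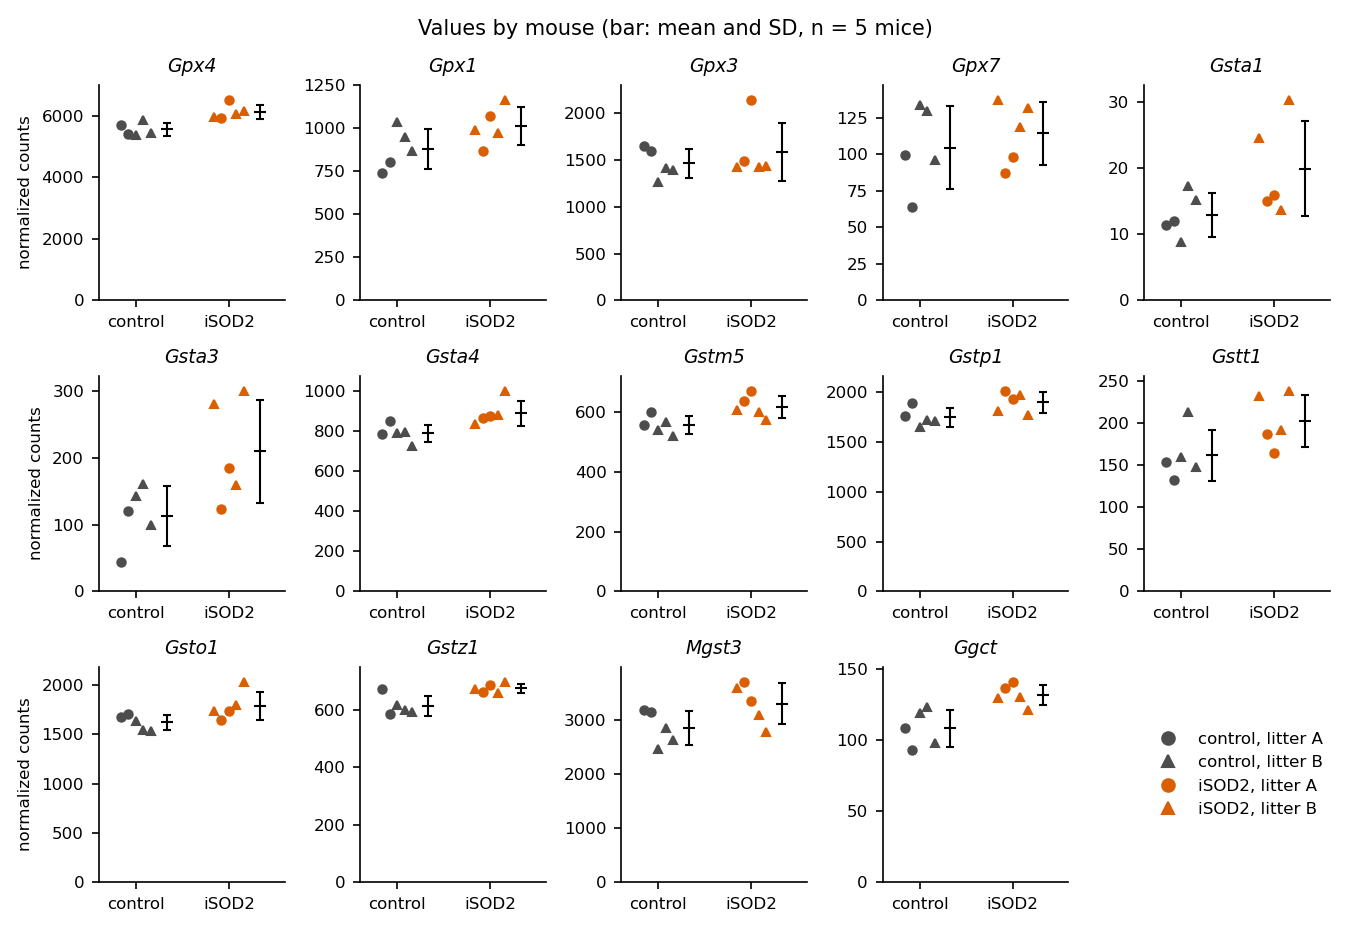
Normalized counts of the 14 members described mouse by mouse, 1 point per mouse (circles, litter A; triangles, litter B), with the mean and SD of each genotype as a black bar. Axes start at 0. Gpx4 is the member in which all iSOD2 hearts lie above all controls, and Gsta3 spans the widest relative range.

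The list of 38 genes linked to glutathione but outside the rule (cystine uptake, cysteine synthesis, export, glutaredoxins, glyoxalases and NADPH supply) gave 0 calls by DESeq2 and 0 by edgeR. At an unadjusted p under 0.05, 6 of the 38 were higher and 1 lower, beside the 7.29% and 5.93% of all genes given above. Glrx5, the mitochondrial glutaredoxin of iron-sulfur cluster assembly, had 750.2, 702, 713, 708 and 674 in controls. It had 784, 831, 833, 810.0 and 768 in iSOD2 hearts. Every iSOD2 heart was above every control, as for 2.1% of all genes. The log2 fold change of Glrx5, 0.18 ± 0.057 (SE), passed the adjusted p (0.0289) below the fold threshold, with 0.058 after removal of the exon length trend.

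The 5 linked genes with the largest log2 fold change among those averaging at least 50 were Abcc2, Gstcd, Chac1, Idh2 and Chac2. Abcc2, the exporter of glutathione conjugates into bile, had 1.24 ± 0.75 (SE), with 1.81 normalized counts in control 1 and 169 in iSOD2 10, and -0.17 with the hepatocyte marker level as a covariate. Gstcd, which carries a transferase-like domain, had -0.39 ± 0.17 (SE). Its genotypes did not overlap, from 41.0 to 63.6 in iSOD2 hearts against 63.9 to 71.8 in controls, as for 1.67% of all genes in this direction. Idh2, the mitochondrial NADPH source, had 0.20 ± 0.069 (SE) (adjusted p 0.0553). Chac1 and Chac2, which cleave glutathione in the cytosol, had 0.34 ± 0.22 (SE) and 0.20 ± 0.15 (SE). Of 30 linked genes averaging at least 50, 19 had a log2 fold change above 0, with a median of 0.036. Of all genes averaging at least 50, 48.5% did, with a median of -0.0045. With the exon length trend removed 17 of the 30 did, with a median of 0.019.

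Exon length moved with the fold changes. Members were short: the 31 had a median exon length of 1295 bp, against 2997 bp for all genes averaging at least 50. When those 12149 genes were split by exon length into 5 bins of equal size, the median log2 fold change ran from 0.11 in the shortest bin (up to 1677 bp) to -0.079 in the longest (from 4936 bp). The shortest bin held 22 of the 31 members, of which 22 had a log2 fold change above 0, as did 80.3% of all genes of that bin. The median of these 22 was 0.14. In the next bin 3 of 4 members were above 0 (63.5% of its genes), in the middle bin 1 of 4 (46.4%), and the only member of the next longer bin, Ggt5, was below 0.

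After a smooth trend with exon length was removed from each library, 19 of the 31 members were above 0 and 12 below (47.2% of all genes were above), with a median of 0.020. Gsta3 (0.80, unadjusted p 0.0307), was then the 1 member higher at an unadjusted p under 0.05, as were 4.69% of all genes, and 0 members were called. The largest remaining log2 fold changes above 0 were those of Gsta3, Gstt1 (0.20) and Ggct (0.18), and the largest below 0 were those of Hpgds (-0.34) and G6pdx (-0.16).

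**Figure D3:**
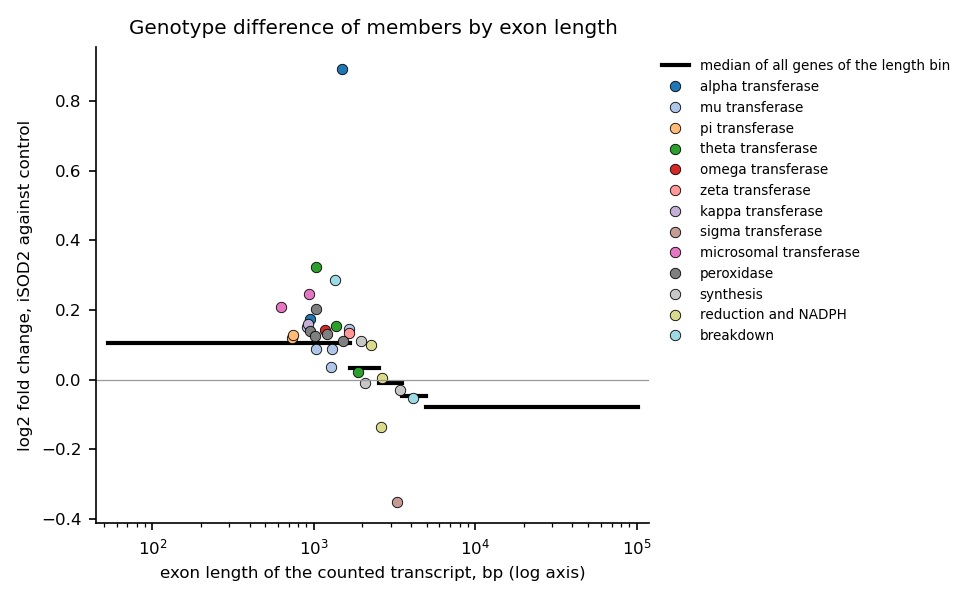
Log2 fold change of iSOD2 against control hearts for the 31 members by the exon length of the counted transcript (log axis), coloured by class. Black lines give the median of all genes in each of the 5 exon length bins and fall from 0.11 to -0.079, and most members lie near the line of their bin, with Gsta3 far above it and Hpgds below it.

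**Figure D4:**
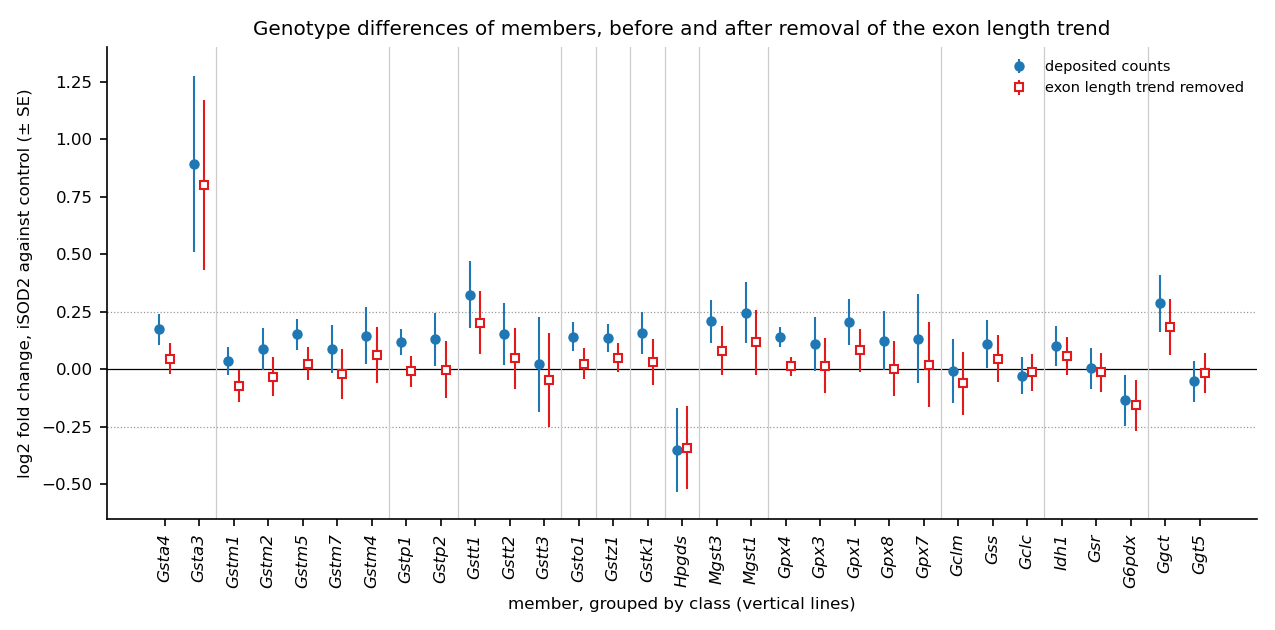
Log2 fold change ± SE of each of the 31 members from the deposited counts (blue) and with the exon length trend removed (red, open), with dotted lines at the call threshold of 0.25 in either direction. Of the blue points 26 lie above 0 and of the red ones 19.

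The second measure that moved with members was the hepatocyte marker level. In a model with genotype, 2 members passed an adjusted p of 0.05 for this level, Gsta3 and Gpx1, where 1.65% of all genes did. Gsta3 rose by 0.38 ± 0.075 (SE) on the log2 scale for each unit of marker level (adjusted p 9.01e-05). When control 1 was left out the value was 0.49 with an adjusted p of 0.15. Gpx1 rose by 0.092 ± 0.028 per unit (adjusted p 0.0498), and by 0.24 (adjusted p 0.00421) without control 1. The Gpx1 call was kept in 2 of the 10 fits that left out 1 mouse. At an unadjusted p under 0.05 there were 6 of 40 members (7.87% of all genes). Besides Gsta3 and Gpx1 these were the scarce Ggt1 and 3 with values below 0: Mgst3 at -0.069 per unit (adjusted p 0.345), Gstm7 at -0.075 (0.451) and Gstk1 at -0.063 (0.489). Mgst3 passed without control 1, where it fell by 0.22 per unit (adjusted p 0.0261). Nearer 0, Gpx4 had -0.0056 per unit, Gsta4 0.0070 and Ggct 0.0044.

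With the hepatocyte marker level as a covariate, 24 of the 31 members had a genotype log2 fold change above 0 (49% of all genes), with a median of 0.14, and 6 were higher at an unadjusted p under 0.05 (7.05% of all genes). Gsta3 was not among them (0.28, unadjusted p 0.208), whereas Gpx4 was (0.15, unadjusted p 0.00924).

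**Figure D5:**
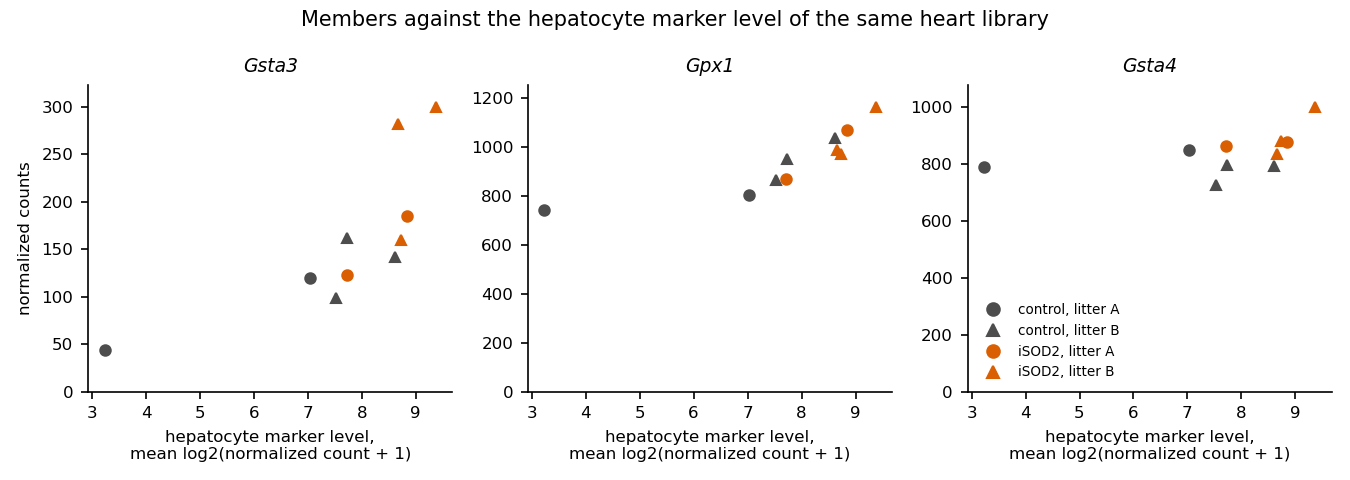
Normalized counts of Gsta3, Gpx1 and Gsta4 against the mean log2 level of 16 hepatocyte markers in the same heart library, 1 point per mouse. Gsta3 is lowest in control 1, which has the lowest marker level (3.23), and highest in iSOD2 10, which has the highest (9.37). Gsta4 is near 788 at the lowest level and is also highest in iSOD2 10, at 999.6.

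Litters were compared with genotype in the model, since each litter held both genotypes. Gpx3 and Gpx7 were called, 2 members, beside 3.5% of all genes. Gpx3 was lower in litter B, at 1392 ± 62.7 normalized counts (SD, n = 6) against 1716 ± 285 in litter A (SD, n = 4). The log2 difference, litter B minus A, was -0.30 ± 0.085 (SE), with an adjusted p of 0.0147. All 6 litter B hearts lay below all 4 of litter A, and the share of all genes that separate the litters was not computed. The call was lost without iSOD2 8 (-0.18, adjusted p 0.105) and without control 1 (-0.30, adjusted p 0.0795).

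Gpx7 was higher in litter B, at 124 ± 15.2 (SD, n = 6) against 87.1 ± 16.4 (SD, n = 4), a log2 difference of 0.50 ± 0.16 (adjusted p 0.0336). Control 6 of litter B, at 96.1, lay within the range of litter A. The Gpx7 call was kept in 3 of 10 fits that left out 1 mouse, those without control 1, control 6 or iSOD2 9, and in the other fits the adjusted p reached 0.228. Litter A held 3 males and 1 female and litter B 2 males and 4 females. With sex also in the model Gpx7 was not called (0.49, adjusted p 0.135), nor with the exon length trend removed (adjusted p 0.0508), whereas Gpx3 was in both (-0.38 and -0.33). Mgst3 was called as lower in litter B with the exon length trend removed (-0.27, adjusted p 0.0143) but not before (-0.21, adjusted p 0.089). By edgeR 0 members were called between litters, with adjusted p 0.0731 for Gpx3 and 0.0691 for Gpx7, and in the DESeq2 fit 9 of 40 members had an unadjusted p under 0.05, as did 13% of all genes.

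The study set glutathione genes of males and females side by side, so both sexes were compared here as well. Between the sexes 0 members were called by DESeq2 or by edgeR (0.42% of all genes by DESeq2), and 6 of 40 had an unadjusted p under 0.05 (6.6% of all genes): Mgst1, Gsr, Ggt1, Gstp2, Gsta1 and Ggt7. Mgst1 came closest, at 453 ± 56.4 normalized counts in males and 375 ± 69.2 in females (SD, n = 5 each). The log2 difference, female minus male, was -0.34, with an adjusted p of 0.0975.

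Fits of a single sex were run without removal of the exon length trend, which lowered the count of members above 0 over all hearts from 26 to 19. In females alone, 3 iSOD2 against 2 control hearts, 24 of 31 members had a log2 fold change above 0 (48.7% of all genes), with a median of 0.15. In males alone, 2 iSOD2 against 3 control hearts, 23 of 31 did (49.2% of all genes), with a median of 0.10. The difference between these effects was tested by the genotype-by-sex interaction, where 0 of 40 members passed by DESeq2 or by edgeR and 0 had an unadjusted p under 0.05 by DESeq2 (1.18% of all genes). Gsta3 had a log2 ratio of means of 0.97 in females and 0.47 in males, with an interaction of 0.49 ± 0.73 (SE).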

How the data were processed

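Total RNA from heart tissue of 10 mice had been sequenced from stranded libraries. The authors trimmed adapters where present with Trim Galore, aligned reads with STAR to mm10 (GRCm38) and counted them over exons with HOMER. The deposited values are estimated counts in steps of 0.5, not normalized, and no strand option of the counting is given in the sources used here. Models took them rounded to integers. Every column mapped to a labelled mouse. Counts summed over the genes of the table ranged from 16448090 to 24263086 per library, which limits members averaging under 50 normalized counts.

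Genes with a sum of at least 10 counts were fitted with DESeq2 1.42.0 (R 4.3.3, Wald test, median-of-ratios size factors, adjusted p by Benjamini-Hochberg over all genes, default independent filtering). A gene was called at an adjusted p of at most 0.05 and an absolute log2 fold change above 0.25, and in the interaction and hepatocyte fits at the adjusted p alone. Litter and sex were fitted beside genotype. Normalized counts are counts divided by size factors. Marker levels are means of log2(normalized count + 1) and were compared by two-sided exact permutation tests. The exon length trend was a spline with 5 degrees of freedom fitted in each library and passed on as normalization factors. edgeR 4.0.16 (quasi-likelihood), TMM scaling, other count filters, covariates, single litters or sexes and leaving out each mouse were tried as alternatives. The fit with both the hepatocyte level and the length trend, the fit without independent filtering, and the hepatocyte level as a covariate of the litter and sex fits were chosen after seeing the data. Fits were tested on simulated counts. Members averaging at least 50 normalized counts are named, with every mouse's value for those called in the DESeq2 genotype, litter, sex or hepatocyte fit described here (not those called in alternatives alone) or with an unadjusted genotype p under 0.05, and for Gstt1 and Gsta1. Of the glutathione-linked genes, called ones and the 5 with the largest absolute log2 fold change are named, and Glrx5 was added after its values were seen. Members and lists were chosen with earlier results of these data known. Promoter windows came from RefSeq (GRCm38.p6).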

Additional observations from a re-analysis of the deposited data

Results flagged for a closer look

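A single mouse far from the other 4 of its genotype was found in 3 of the 66 groups looked at, where chance gives about 1 in 20 (3.3 groups). Gpx3 in iSOD2 8, a female of litter A, had 2132 normalized counts, while the other 4 hearts of its genotype lay between 1419.5 and 1486. Gsta4 in iSOD2 10, a female of litter B with the highest hepatocyte marker level, had 999.6 normalized counts, while the other 4 hearts of its genotype lay between 835 and 880.0. Without this mouse the log2 fold change of Gsta4 was 0.13. Gstt3 in control 6, a female of litter B, had 91.6 normalized counts, while the other 4 hearts of its genotype lay between 53.3 and 60.9, and without that mouse the log2 fold change of Gstt3 was 0.20.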

How the results depend on the processing

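The share of all genes called was given above for the main genotype, litter, sex and hepatocyte fits. It is not given for other fits, so the counts below cannot be set against it. The count of members called between genotypes (0) became 1 with sex as a covariate and with sex and litter (Mgst1). It was also 1 with the hepatocyte marker level as a covariate (Mgst3), and in litter B alone and in females alone (Gsta3). With no fold threshold the count was 1 (Gpx4), beside 6.09% of all genes. It ranged from 0 to 1 when 1 mouse was left out. Between litters the count (2) was 0 by edgeR, 1 with genotype and sex as covariates (Gpx3), 0 with the hepatocyte level as a covariate, and 1 to 2 when 1 mouse was left out. The members changed too: Mgst3 took the place of Gpx7 with the length trend removed and without iSOD2 5, Gsta3 did without control 2, and Gpx1 was the 1 called without iSOD2 8. Between sexes it (0) became 1 with the exon length trend removed (Mgst1) and stayed at 0 to 0 when 1 mouse was left out, as did the interaction. With the hepatocyte level it (2) was 1 by edgeR, with TMM scaling and with the length trend removed, and 1 to 2 when 1 mouse was left out. For the glutathione-linked genes the count (0) was 1 with the hepatocyte level as a covariate (Idh2), in females alone (Abcc2) and with no fold threshold (Glrx5), and 0 to 2 when 1 mouse was left out (Cth and Cbs without control 3). The hepatocyte difference ranged from 0.939 (without control 1) to 2.28. Of 32 members followed, 14 kept their sign in all 25 alternatives. The log2 fold change changed sign with the exon length trend removed for Gsr (-0.013), Gstm1 (-0.072), Gstm2 (-0.032), Gstm7 (-0.020), Gstp1 (-0.0086), Gstp2 (-0.0012) and Gstt3 (-0.045). With the hepatocyte level as a covariate it did so for Ggt5 (0.0065), Gpx7 (-0.0086), Gsr (-0.093) and Gstt3 (-0.082), and with both for Ggt5 (0.054), Gpx1 (-0.063), Gpx7 (-0.10), Gpx8 (-0.039), Gsr (-0.10), Gstm1 (-0.013), Gstm4 (-0.0089), Gstt3 (-0.13) and Idh1 (-0.0016). It also did with sex as a covariate for Gsr (-0.035) and Gstt3 (-0.050), with sex and litter for Gsr (-0.028) and Gstt3 (-0.070), in litter A alone for Gclm (0.17), Gstm7 (-0.022) and Gsto1 (-0.00031), and in litter B alone for Gsr (-0.068) and Gstt3 (-0.17). In females alone it changed sign for Gclc (0.045), Ggt5 (0.0053), Gsr (-0.035), Gstm1 (-0.011), Gstm2 (-0.042) and Gstt3 (-0.040), and in males alone for Gclm (0.033), Gpx3 (-0.052), Gsr (-0.039), Gss (-0.031) and Gstt3 (-0.064). When 1 mouse was left out the sign turned for Gclm (-0.094 to 0.083), Gpx3 (-0.021 to 0.16), Gsr (-0.033 to 0.063) and Gstt3 (-0.11 to 0.20). The causes were not tested. No paired analysis was possible because mice of the 2 genotypes share no numbers, and litter was used as a covariate instead. Depth limits the 9 tested members under 50 normalized counts, and 25 of the 40 had an adjusted p.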
